A study of Mus musculus with 6 samples.

Results

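The genes described here are 10 genes of the IL-6, IL-12 and IL-10 cytokine families: *Il6*, *Osm*, *Lif*, *Il6st*, *Il12a*, *Il12b*, *Il23a*, *Il27*, *Ebi3* and *Il10*. They were taken by symbol from a table of 54532 genes, and each symbol matched 1 row. RNA had been sequenced from primary mouse macrophages of wild-type (WT, labelled METRNL+/+) mice and of METRNL knockout (KO, labelled METRNL-/-) mice, with 3 libraries in each group. By their labels all 6 cultures had been exposed in vitro to the fungus *Candida albicans* for 6 h. No unexposed library was analysed here, so whether the exposure took alike in every culture could not be checked. The comparison is therefore between genotypes within cells labelled as exposed. Both replicate 1 libraries stood apart from replicates 2 and 3 of their own genotype: for most of the cytokine genes WT replicate 1 lay near KO replicates 2 and 3, and KO replicate 1 near or above WT replicates 2 and 3. Summed markers of B cells and dendritic cells followed the genotype labels in all 6 libraries. Within each genotype, though, replicate 1 was again the lowest WT and the highest KO library in both sums. Whether the exposure or its labelling differed for the replicate 1 libraries was not tested, and genotype differences given with or without them are read with that limit. The labels give neither the animals' strain, age or sex nor the tissue the macrophages came from. They do not say how the allele was made, or whether replicate libraries came from different animals or cultures; a p-value here therefore measures library-to-library spread, part of which may be technical.

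Macrophages use these cytokines to shape the response to microbes. Ligands of the IL-6 family (*Il6*, *Osm*, *Lif*) act through receptors that contain the shared signalling chain encoded by *Il6st*, which activates JAK kinases and STAT3. The IL-12 family is built from pairs of subunits: *Il12a* with *Il12b* gives IL-12, *Il23a* with *Il12b* gives IL-23, *Il27* with *Ebi3* gives IL-27, and *Il12a* with *Ebi3* gives IL-35. IL-12 and IL-23 steer T and NK cells toward interferon-gamma and IL-17 production, whereas IL-10 restrains macrophage activation through STAT3.

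The pattern that runs through this group is within-genotype variation in replicate 1. Replicate 1 was the highest KO and the lowest WT library for all 6 genes with a promoter window, against 22.4% of all genes tested. *Lif*, *Il12a* and *Il6st* were among them. *Il6st* had this order by a small margin in KO (4.99 against 4.80 and 4.88 FPKM), and its values separated by genotype. The pattern therefore does not single out the genes shown. Promoter sequences are given for *Il6*, *Il12b* and *Ebi3*. Promoter windows came from RefSeq (GRCm38.p6), and 6 of the 10 genes had at least 1. Each sequence is the 250 bases before the RefSeq transcript start, 5′ to 3′ on the plus strand, which is the coding strand of these 3 genes. The windows are chr5:30012864-30013113 for *Il6*, chr11:44399813-44400062 for *Il12b* and chr17:55952373-55952622 for *Ebi3*. Capitals mark matches to the kappaB consensus, the motif bound by NF-kappaB.
Il6: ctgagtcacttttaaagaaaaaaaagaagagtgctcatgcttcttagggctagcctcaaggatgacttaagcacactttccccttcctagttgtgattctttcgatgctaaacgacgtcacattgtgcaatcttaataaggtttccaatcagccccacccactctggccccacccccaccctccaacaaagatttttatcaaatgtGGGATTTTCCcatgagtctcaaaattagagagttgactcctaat
Ebi3: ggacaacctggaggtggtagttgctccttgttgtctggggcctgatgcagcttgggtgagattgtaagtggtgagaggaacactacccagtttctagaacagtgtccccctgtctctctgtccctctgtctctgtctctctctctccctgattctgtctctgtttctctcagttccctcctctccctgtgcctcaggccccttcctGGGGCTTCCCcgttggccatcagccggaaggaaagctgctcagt
Il12b: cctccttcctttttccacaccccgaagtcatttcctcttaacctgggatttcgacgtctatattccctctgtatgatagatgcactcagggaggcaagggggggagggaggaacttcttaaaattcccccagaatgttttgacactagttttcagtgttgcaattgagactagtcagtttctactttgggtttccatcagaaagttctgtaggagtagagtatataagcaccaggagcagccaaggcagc
*Il6* and *Ebi3* each held 1 kappaB match, and in both it lay at bases -44 to -35 counted from the transcript start. Among the windows of the other 4 genes, *Lif* held a match at -178 to -169, and *Il12b*, *Il12a* and *Il6st* held none. Of 32851 RefSeq promoter windows of this length, 7.25% held the kappaB consensus on either strand. The *Il6* window also held TGANTCA, an AP-1 motif, at -249 to -243 (6.75% of windows) and TTNNGCAA, a C/EBP motif, at -128 to -121 (9.56% of windows). No interferon-response motif GAAANNGAAA (2.98% of windows) and no STAT motif TTCNNNGAA (7.02% of windows) was found in the windows of the 6 genes, with both strands searched. These matches describe letters in a window and are not evidence of binding.

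Levels are in FPKM, a unit that scales fragment numbers by the length of the gene and a size given to the library. Levels of different genes can be compared only as far as the deposited gene lengths match the transcripts present, which was not checked. In every run of 3 values for WT or KO, replicates 1, 2 and 3 stand in that order. Reads behind them could be recovered as whole numbers and came to 11026529 to 15724897 reads in genes per library. Among the 10 cytokine genes the reads ranged from 88 (*Il27*, KO replicate 3) to 10209 (*Osm*, KO replicate 1) per library. Genotype differences were tested with limma on log2(FPKM + 1) over the 11689 genes whose mean reached 0.5 FPKM, and a Benjamini-Hochberg adjusted p below 0.05 was called. All 10 cytokine genes passed the filter. *Metrnl* itself stood at 93.5, 63.2 and 69.8 FPKM across the WT libraries and at 51.2, 63.6 and 62.8 FPKM across the KO libraries (limma adjusted p = 0.181). A value per gene does not show which exons were read, so the RNA does not check the genotype labels, and every direction below refers to the libraries labelled KO.

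Of the 10 cytokine genes, *Osm* was higher and *Il6st* was lower in KO, and the other 8 did not pass the test. Over all 11689 genes tested, 28.0% were called, 15.7% higher and 12.4% lower. The median log2 fold change (KO minus WT) was -0.31 for the 10 genes and 0.03 for all genes. KO and WT values did not overlap for 2 of the 10 genes, the same *Osm* and *Il6st*, against 45.6% of all genes tested (25.7% with KO above and 19.9% with KO below). In 9 of the 10 genes, all but *Osm*, replicate 1 was the highest KO library and the lowest WT library at the same time. That arrangement was found in 22.4% of all genes tested. KO replicate 1 exceeded every WT value in 7 of the 10 genes, and WT replicate 1 lay below every KO value in 5 of them. The shares of all genes tested with these features were not counted, so both counts only describe the 10 genes.

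**Figure D1:**
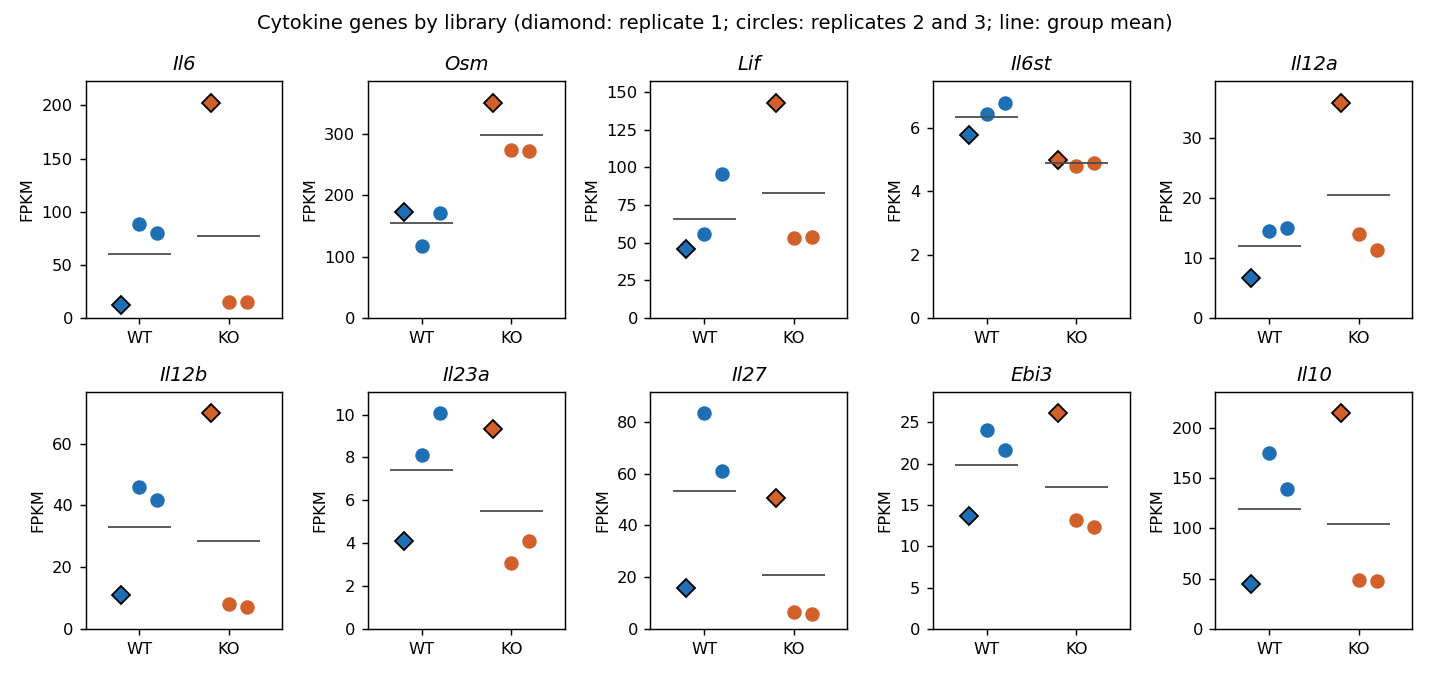
FPKM of each cytokine gene (vertical axes, starting at 0) in the 3 WT and 3 KO libraries. Diamonds are replicate 1, circles replicates 2 and 3, and lines the group means. *Osm* separates the genotypes upward and *Il6st* downward, while in the other panels KO replicate 1 lies far above the remaining KO libraries and WT replicate 1 below the remaining WT libraries.

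Among the IL-6 family ligands, *Osm* encodes oncostatin M, a macrophage and neutrophil product that acts on stromal, endothelial and liver cells (chromosome 11, 4236420 to 4241026, plus strand, GRCm38 as in the deposited table). It stood at 173, 118 and 172 FPKM across the WT libraries and at 351, 273 and 272 FPKM across the KO libraries. Every KO library was above every WT library, and *Osm* had the highest mean of the 10 genes in both genotypes. Mean FPKM was 154 ± 31.3 for WT against 299 ± 45.5 for KO (SD, n = 3 each), a 1.94-fold difference. *Osm* rose in KO, with a log2 fold change of 0.96 ± 0.18 (SE; 95% confidence interval 0.52 to 1.40; limma adjusted p = 0.0124). Its difference was similar in the replicate 1 libraries, at 1.02 on the log2 scale, and in replicates 2 and 3, at 0.93 (limma adjusted p = 0.0214 for these 4 libraries).

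*Il6* encodes interleukin-6, a fever and acute-phase cytokine that NF-kappaB, C/EBP-beta and the cofactor encoded by *Nfkbiz* induce (chromosome 5, 30013114 to 30019981, plus strand). Its FPKM values came to 12.5, 89.0 and 80.1 FPKM across the WT libraries and 203, 15.4 and 14.9 FPKM across the KO libraries. The ranges of the genotypes overlapped: the lowest value was a WT library and the highest was a KO library, 16.2-fold apart, both replicate 1. KO replicate 1 was 13.4-fold above the mean of the other KO libraries, and WT replicate 1 was at 0.148 of the mean of the other WT libraries. Over all libraries the log2 fold change was -0.30 ± 1.20 (SE; limma adjusted p = 0.879). Its 95% confidence interval, -3.18 to 2.59, leaves room for a large difference in either direction. In replicates 2 and 3 alone, *Il6* was 5.58-fold lower in KO (84.5 against 15.1 FPKM, log2 fold change -2.40 ± 0.07 SE, limma adjusted p = 4.40e-04).

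*Lif* encodes leukemia inhibitory factor and lies 16530 bases downstream of *Osm* on the same strand (chromosome 11, 4257557 to 4272514). It measured 45.9, 55.5 and 95.6 FPKM across the WT libraries and 143, 53.0 and 53.6 FPKM across the KO libraries. WT replicate 3 and KO replicate 1 were the high libraries and the others lay close together. With all libraries it differed by a log2 fold change of 0.24 ± 0.45 (SE; 95% confidence interval -0.84 to 1.33; limma adjusted p = 0.728). In replicates 2 and 3 the sign was the opposite, -0.44, and also did not pass (limma adjusted p = 0.249). *Osm* and *Lif*, neighbours in the genome, therefore did not share a pattern over the libraries.

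*Il6st*, the shared signalling chain (chromosome 13, 112464070 to 112510086, plus strand), had the lowest mean of the 10 genes and varied least. It stood at 5.77, 6.44 and 6.79 FPKM across the WT libraries and at 4.99, 4.80 and 4.88 FPKM across the KO libraries. All KO values were below all WT values, and its highest library was 1.42-fold above its lowest. *Il6st* fell in KO, by 0.31 ± 0.07 (SE) on the log2 scale (95% confidence interval -0.49 to -0.13; limma adjusted p = 0.0254). The difference was 1.30-fold, and the call was lost when any of WT replicates 2 and 3 or KO replicates 2 and 3 was left out (limma adjusted p from 0.0729 to 0.0896). It was also lost in TPM (limma adjusted p = 0.0586), where each library sums to the same total.

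In the IL-12 family, *Il12b* encodes the subunit shared by IL-12 and IL-23 (chromosome 11, 44400063 to 44414033, plus strand). It stood at 10.8, 45.9 and 41.9 FPKM across the WT libraries and at 69.9, 8.18 and 7.23 FPKM across the KO libraries. KO replicate 1 was above every WT library, and WT replicate 1 was near KO replicates 2 and 3. Over all 6 libraries *Il12b* had a log2 fold change of -0.72 ± 0.95 (SE; 95% confidence interval -3.01 to 1.57; limma adjusted p = 0.617). In replicates 2 and 3 alone it was 5.70-fold lower in KO (limma adjusted p = 5.93e-04), while in replicate 1 the KO library was 6.44-fold higher.

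*Il12a* encodes the IL-12-specific subunit (chromosome 3, 68690644 to 68698547, plus strand). Measured levels were 6.71, 14.5 and 15.0 FPKM across the WT libraries and 36.0, 14.1 and 11.4 FPKM across the KO libraries. Apart from replicate 1, the WT and KO libraries lay within 1.16-fold of each other on average, and these did not pass (log2 fold change -0.20 ± 0.11 SE, limma adjusted p = 0.218). With all libraries the log2 fold change was 0.62 ± 0.47 (SE; 95% confidence interval -0.53 to 1.76; limma adjusted p = 0.378).

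*Il23a*, the IL-23-specific subunit (chromosome 10, 128296139 to 128298752, minus strand), was the least abundant of the ligand genes. It measured 4.11, 8.13 and 10.1 FPKM across the WT libraries and 9.32, 3.07 and 4.10 FPKM across the KO libraries, resting on 109 to 283 reads. WT replicate 1 sat with KO replicates 2 and 3, and KO replicate 1 with WT replicates 2 and 3. The log2 fold change was -0.42 ± 0.42 (SE; 95% confidence interval -1.44 to 0.59; limma adjusted p = 0.499), and it was -1.14 ± 0.16 in replicates 2 and 3 (limma adjusted p = 0.00818).

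*Il27* encodes the IL-27-specific subunit (chromosome 7, 126589010 to 126594941, minus strand). It stood at 15.9, 83.4 and 61.1 FPKM across the WT libraries and at 50.5, 6.58 and 5.75 FPKM across the KO libraries. Here the KO libraries were lower than the WT library of the same rank throughout, though the groups overlapped. Its log2 fold change over all libraries was -1.69 ± 0.94 (SE; 95% confidence interval -3.96 to 0.58; limma adjusted p = 0.232). Without KO replicate 1 the gene was called lower (log2 fold change -2.64, limma adjusted p = 0.0451), and in replicates 2 and 3 it was 11.7-fold lower in KO (72.2 against 6.16 FPKM, limma adjusted p = 9.46e-04). *Apobr*, on the opposite strand, overlaps *Il27* only at its end, from base 126589010 to 126589112. Since the strand setting of the counting is not given in the sources used here, reads within that stretch may not be separable. *Apobr* itself ranged from 17.2 to 27.4 FPKM.

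*Ebi3*, the partner subunit of *Il27* (chromosome 17, 55952640 to 55957022, plus strand), varied less than *Il27*. Library values were 13.7, 24.1 and 21.6 FPKM across the WT libraries and 26.1, 13.2 and 12.4 FPKM across the KO libraries. The high and low libraries were the same as for *Il12b*. The log2 fold change was -0.23 ± 0.32 (SE; 95% confidence interval -1.01 to 0.55; limma adjusted p = 0.637), and in replicates 2 and 3 it was -0.79 ± 0.08 (limma adjusted p = 0.00372). The antisense gene *Gm16712* overlaps *Ebi3* over a longer stretch, from base 55954771 to 55957022, and ranged from 1.40 to 4.55 FPKM. The same limit on strand applies there.

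*Il10*, the restraining cytokine (chromosome 1, 131019845 to 131024974, plus strand), had the second highest mean in each genotype. It measured 44.5, 175 and 139 FPKM across the WT libraries and 214, 49.0 and 48.0 FPKM across the KO libraries. The lowest library was WT and the highest KO, as for *Il6*. The log2 fold change was -0.36 ± 0.74 (SE; 95% confidence interval -2.14 to 1.42; limma adjusted p = 0.754). In replicates 2 and 3 *Il10* was 3.23-fold lower in KO (limma adjusted p = 0.00185), so the pro-inflammatory *Il12b* and the anti-inflammatory *Il10* lay in the same direction in these 4 libraries.

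**Figure D2:**
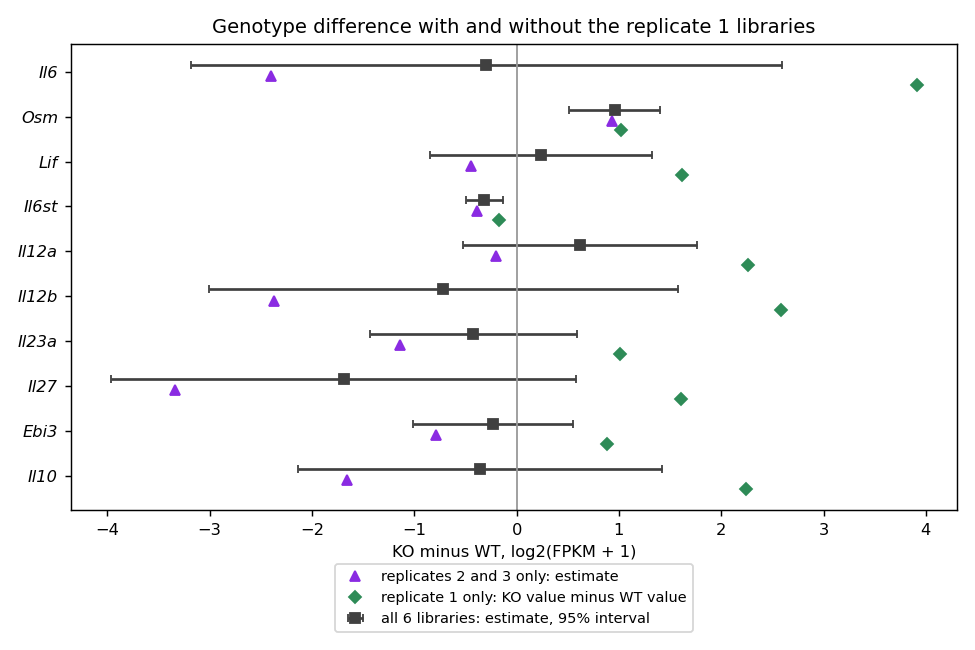
KO minus WT difference of each cytokine gene on the log2(FPKM + 1) scale. Squares with bars are the estimate and 95% confidence interval over all 6 libraries, triangles the estimate from replicates 2 and 3, and diamonds the replicate 1 difference, which has no replicate. For 8 genes the triangle and the diamond lie on opposite sides of 0, and *Osm* and *Il6st* have them on the same side. The share of all genes tested with opposite sides was not counted.

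The genotype comparison was repeated without both replicate 1 libraries, which were known from an earlier analysis of these data to stand apart. Then 7 of the 10 cytokine genes were called lower (*Il6*, *Il6st*, *Il27*, *Ebi3*, *Il10*, *Il12b* and *Il23a*) and *Osm* was called higher, with *Lif* and *Il12a* not called (limma adjusted p below 0.05). Over all genes 35.6% were called in that fit, 16.3% lower and 19.3% higher. The median log2 fold change was -0.97 for the 10 genes and 0.03 over all genes. Within each group the 2 remaining libraries resembled each other most, which makes the spread in that test small. For all cytokine genes but *Osm*, the libraries left out held the lowest WT and the highest KO value. The fold of those genes therefore had to move downward, and the lower calls follow in part from that choice. In the replicate 1 libraries the KO value was the higher for all of the genes but *Il6st*, from 1.91-fold (*Ebi3*) to 16.2-fold (*Il6*). The share of all genes with a higher KO value in the replicate 1 libraries was not counted. Leaving out 1 of these libraries at a time ended neither the *Osm* call nor the *Il6st* call. The all-gene counts moved as well, to 2252 higher and 1908 lower without both replicate 1 libraries, against 1833 and 1445 with all libraries.

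By mean FPKM in WT, the order was *Osm*, *Il10*, *Lif*, *Il6*, *Il27*, *Il12b*, *Ebi3*, *Il12a*, *Il23a* and *Il6st*. The ranges of every pair of neighbours overlapped over the WT libraries. Within each WT library, though, *Il27* was above *Il12b*, *Ebi3* above *Il12a* and *Il12a* above *Il23a*. For the other neighbours the order changed between WT libraries. In KO the order was *Osm*, *Il10*, *Lif*, *Il6*, *Il12b*, *Il27*, *Il12a*, *Ebi3*, *Il23a* and *Il6st*. There, the range of *Osm* lay above that of *Il10* and the range of *Ebi3* above that of *Il23a*, and the ranges of the other neighbours overlapped. Within each KO library *Il6* was also above *Il12b* and *Il12b* above *Il27*. The ratio of the highest to the lowest of the 6 libraries was 16.2 for *Il6*, 14.5 for *Il27* and 9.67 for *Il12b*. It was 2.97 for *Osm*, 2.11 for *Ebi3* and 1.42 for *Il6st*, so the genes differed widely in how far the libraries spread.

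Ratios of subunit genes within a library cancel the library scaling. The ratio of *Il12a* to *Il23a*, which both pair with *Il12b*, was 1.63, 1.79 and 1.49 across the WT libraries and 3.86, 4.59 and 2.79 across the KO libraries. All KO libraries, replicate 1 included, had a higher ratio than all WT libraries, with means of 1.64 ± 0.147 and 3.75 ± 0.909 (SD, n = 3 each). The exact two-sided permutation test of the log2 ratio gave p = 0.1, the smallest that 3 against 3 libraries allow, and 0.25 after adjustment over the 5 ratios tested. The ratio of *Il12a* to *Ebi3* likewise separated the genotypes, at 0.491, 0.604 and 0.696 in WT and 1.38, 1.07 and 0.923 in KO (exact permutation p = 0.1, adjusted 0.25). Neither can reach 0.05 in this design. Both ratios have *Il12a* as numerator, so they are not independent of each other. KO and WT values did not overlap in 45.6% of single genes tested, and that share was not counted for ratios of genes. With any 1 library left out, a check chosen after the data were seen, the KO mean was 2.03 to 2.58 times the WT mean for *Il12a* to *Il23a* and 1.67 to 2.05 times for *Il12a* to *Ebi3*. Without both replicate 1 libraries it was 2.25 and 1.53 times.

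The ratio of *Il12b* to *Il12a* was 1.62, 3.16 and 2.79 across the WT libraries and 1.94, 0.580 and 0.633 across the KO libraries. *Il12b* thus exceeded *Il12a* per length in every WT library and in KO replicate 1, and was below it in KO replicates 2 and 3 (exact permutation p = 0.2, adjusted 0.25). For *Il27* to *Ebi3* the ratios were 1.16, 3.46 and 2.83 in WT and 1.94, 0.499 and 0.465 in KO, with the same libraries below 1 (exact permutation p = 0.2, adjusted 0.25). *Il12b* to *Il23a* ranged from 2.64 to 5.65 in WT and from 1.76 to 7.49 in KO (exact permutation p = 0.8).

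**Figure D3:**
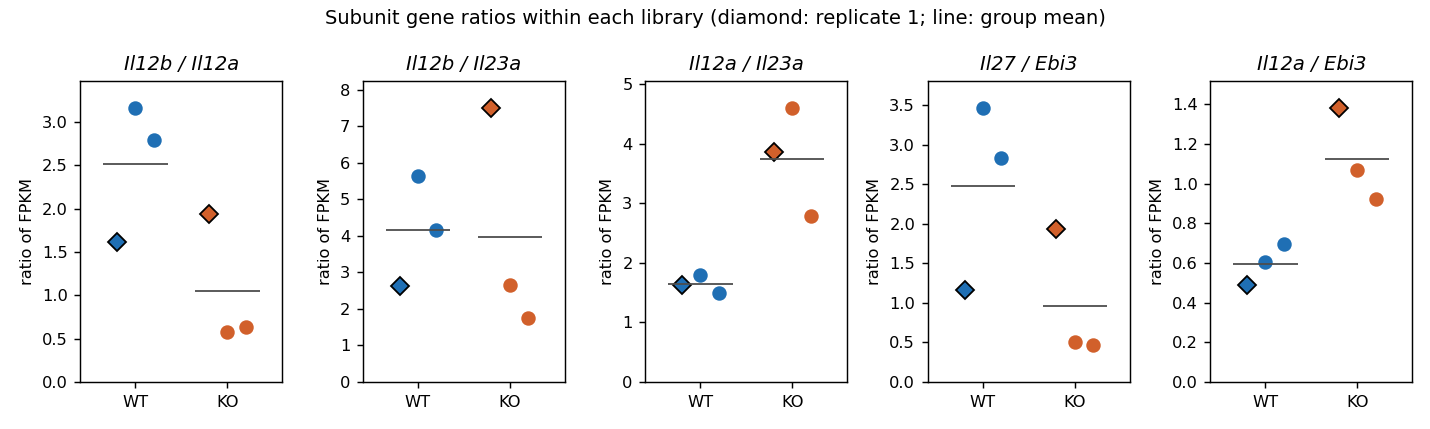
Ratio of FPKM between subunit genes of the IL-12 family within each library (vertical axes, starting at 0), with replicate 1 as diamonds and group means as lines. The ratios of *Il12a* to *Il23a* and of *Il12a* to *Ebi3* are higher in every KO library than in any WT library, while the other 3 ratios overlap.

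Genes around the cytokines were taken from lists drawn up with earlier results of these data known. Of 17 tested receptor and signalling genes of the 3 families, 3 were higher and 2 lower in KO, with a median log2 fold change of -0.20. These counts were close to the shares over all genes tested, 15.7% higher and 12.4% lower, so the called genes are given as single genes and not as a change of the list. *Il11ra1*, the IL-11 receptor chain, rose from 23.7, 16.2 and 19.9 to 39.2, 44.2 and 42.0 FPKM (limma adjusted p = 0.00344), although close copies of this gene may share its reads. *Il10rb*, the shared chain of several IL-10 family receptors, rose by 0.41 on the log2 scale (limma adjusted p = 0.00587). *Lifr*, the LIF receptor chain that partners with the *Il6st* product, was called higher at a low level, 1.20 to 1.33 FPKM in WT and 1.66 to 1.73 FPKM in KO. Its call was lost without both replicate 1 libraries. *Stat4*, the transcription factor downstream of IL-12, fell from 1.90, 3.01 and 2.62 to 0.626, 0.687 and 0.483 FPKM (limma adjusted p = 0.00276). *Ptpn6*, which encodes a phosphatase that limits cytokine signalling, also fell, by 0.40 on the log2 scale. *Stat3*, the main transducer of IL-6 and IL-10, stood at 54.9, 69.3 and 65.3 FPKM in WT and 92.7, 72.7 and 74.6 FPKM in KO and did not pass (limma adjusted p = 0.105).

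*Socs3*, the feedback inhibitor that binds the *Il6st* product, followed the cytokines over the libraries. It measured 513, 894 and 1033 FPKM across the WT libraries and 1119, 488 and 480.2 FPKM across the KO libraries (limma adjusted p = 0.649). The kinase gene *Jak2*, chosen after its values were seen, had the same arrangement, at 33.3, 83.7 and 79.3 FPKM in WT and 102, 34.8 and 33.3 FPKM in KO. The receptor genes for IL-12 and IL-23 (*Il12rb1*, *Il12rb2* and *Il23r*) were below the filter, at no more than 0.448 FPKM in any library. Among the other ligands that use the *Il6st* chain, *Clcf1* passed the filter, at 15.5 to 20.6 FPKM in WT and 11.8 to 21.6 FPKM in KO (limma adjusted p = 0.385), while *Il11*, *Ctf1* and *Cntf* were below it.

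Of 32 transcriptional regulators of the cytokine genes, 6 were higher and 6 lower, against 15.7% and 12.4% of all genes. *Batf2*, *Irf4*, *Irf1*, *Irf5* and *Batf3* fell by 1.63, 1.62, 1.17, 0.73 and 0.73 on the log2 scale (limma adjusted p from 0.00129 to 0.0304). *Irf1*, which acts on the promoters of *Il12a* and *Il27*, stood at 22.5, 19.9 and 24.2 FPKM in WT and 14.9, 7.66 and 6.88 FPKM in KO, with no overlap. Their relatives on the list, *Irf8* and *Batf*, were not called (limma adjusted p = 0.112 for *Irf8* and 0.810 for *Batf*), and *Batf* was at 37.3 FPKM in KO replicate 1, above every WT library. *Fos*, an AP-1 subunit, rose from 25.9, 23.1 and 22.1 to 40.9, 49.6 and 49.5 FPKM (limma adjusted p = 0.00184). *Junb* and *Cebpb* were abundant and did not pass, with means of 1184 and 759 FPKM in WT and 1765 and 890.0 FPKM in KO. *Nfkbiz*, the NF-kappaB cofactor that *Il6* and *Il12b* induction requires, was chosen after its values were seen. It had the arrangement of *Il6*, at 103, 419 and 477 FPKM across the WT libraries and 691, 150.0 and 141 FPKM across the KO libraries (limma adjusted p = 0.903).

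Among 13 regulators of messenger RNA decay and stability, 0 were higher and 2 lower with limma, against 15.7% and 12.4% of all genes tested. Without both replicate 1 libraries the numbers were 1 and 7, against 19.3% and 16.3% of all genes. With all libraries and an unadjusted p below 0.05 they were again 0 and 2, as they were with limma voom on recovered reads at an adjusted p below 0.05. Neither lower call was kept without WT replicate 3 or without KO replicate 2. *Zfp36l1*, which encodes a protein that binds AU-rich elements and promotes decay, fell from 24.0, 42.4 and 41.6 to 22.1, 10.6 and 10.8 FPKM (limma adjusted p = 0.0327). *Zfp36l2*, its relative, fell by 0.62 on the log2 scale (limma adjusted p = 0.0227). *Zfp36*, which targets cytokine transcripts for decay, did not pass and stood at 396, 723 and 829.8 FPKM in WT and 732, 327 and 325 FPKM in KO. *Zc3h12a*, whose product degrades *Il6* and *Il12b* RNA and which was chosen after its values were seen, was also lowest among WT libraries in replicate 1 (137 FPKM) and highest among KO libraries in replicate 1 (399.5 FPKM).

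Other IL-10 and IL-17 family ligands were at low levels and 2 of 4 tested members were lower in KO, with 0 higher (limma; 3 lower and 0 higher at an unadjusted p below 0.05, and 2 and 0 with limma voom; 12.4% of all genes were lower). Both calls were lost without any one of WT replicates 2 and 3 and KO replicates 2 and 3. *Il22* fell from 1.12, 2.83 and 2.30 to 1.06, 0.114 and 0.361 FPKM (limma adjusted p = 0.0454) and *Il17f* from 1.57, 2.81 and 2.88 to 1.08, 0.219 and 0.429 FPKM (limma adjusted p = 0.0195). *Il17a* stood at 3.78, 7.91 and 7.57 FPKM in WT and 5.21, 1.35 and 1.65 FPKM in KO and did not pass (limma adjusted p = 0.107). *Il19*, an IL-10 relative that lies 79729 bases from *Il10* on the opposite strand, was at 1.41, 10.2 and 8.20 FPKM in WT and 6.74, 1.27 and 1.16 FPKM in KO (limma adjusted p = 0.403). *Il17a*, *Il17f* and *Il22* are known as products of T and innate lymphoid cells. The 4 tested T cell and lymphocyte markers (*Cd3d*, *Trbc2*, *Lck* and *Cd2*) were all called lower in KO; no marker particular to innate lymphoid cells was tested, and the part of these cells in the ligand levels was not tested.

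**Figure D4:**
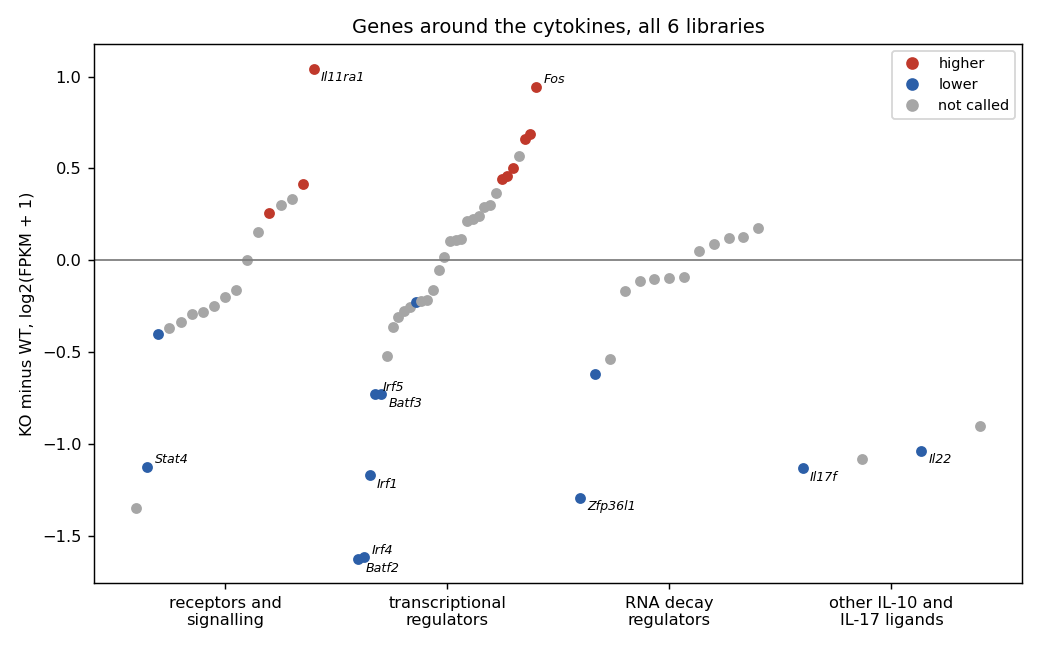
KO minus WT difference on the log2(FPKM + 1) scale for tested genes of 4 lists around the cytokines, ordered by size within each list. Red points were called higher and blue points lower with limma, grey points were not called, and called genes that differ by more than 0.7 are named.

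The cells carried macrophage markers: the 8 markers together summed to 4718 to 5513 FPKM in WT and 8457 to 9134 FPKM in KO, with *Lyz2*, *Cd14* and *Cd68* the most abundant, and 3 of 8 were called higher and 1, *Fcgr1*, lower. The 6 retina markers were included because the extraction text of the labels speaks of retinas, and their sum did not exceed 1.30 FPKM in any library. Marker lists of 6 other cell types had higher summed levels in WT, though not every member followed. The 8 B cell markers, all called lower, summed to 344 to 420.0 FPKM in WT and 19.1 to 24.4 FPKM in KO, with *Ighm*, *Cd79a* and *Cd79b* the most abundant. The 10 dendritic cell markers summed to 156 to 250.4 FPKM in WT and 45.2 to 58.9 FPKM in KO, with 7 of 9 tested members called lower, led in level by *Ccl22*, *Fscn1* and *Ccr7*. T and NK cell markers summed to 12.0 to 14.0 and 2.28 to 3.03 FPKM (4 of 4 tested lower), neutrophil markers to 974 to 1300.1 and 723 to 832 FPKM (3 of 9 lower, with *S100a9*, *Csf3r* and *Cxcr2* among the 6 that overlapped between genotypes and were not called), mesothelial and fibroblast markers to 15.9 to 18.7 and 7.16 to 9.09 FPKM (4 of 7 lower), and mast cell and basophil markers to 6.39 to 7.68 and 0.926 to 1.45 FPKM (4 of 4 lower). No marker was at 0 in all libraries.

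In each of these 6 lists of other cell types the summed level of KO replicate 1 lay below that of every WT library, whereas the cytokine genes other than *Osm* and *Il6st* overlapped between genotypes. Replicate 1 was still the lowest WT and highest KO library in the B cell, dendritic cell, neutrophil, and mesothelial and fibroblast sums. It was not in the T and NK cell or the mast cell and basophil sums. Dendritic cell markers, for example, summed to 156, 250 and 230 FPKM in WT and 58.9, 45.2 and 46.2 FPKM in KO. In bulk RNA, fewer cells of a type and less RNA per cell cannot be told apart, and the part of the other cell types in the levels of the cytokine genes was not tested. KO replicate 1 also had the largest FPKM sum (412048) and WT replicate 1 the smallest (311409), and the part of that scaling was not tested.

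**Figure D5:**
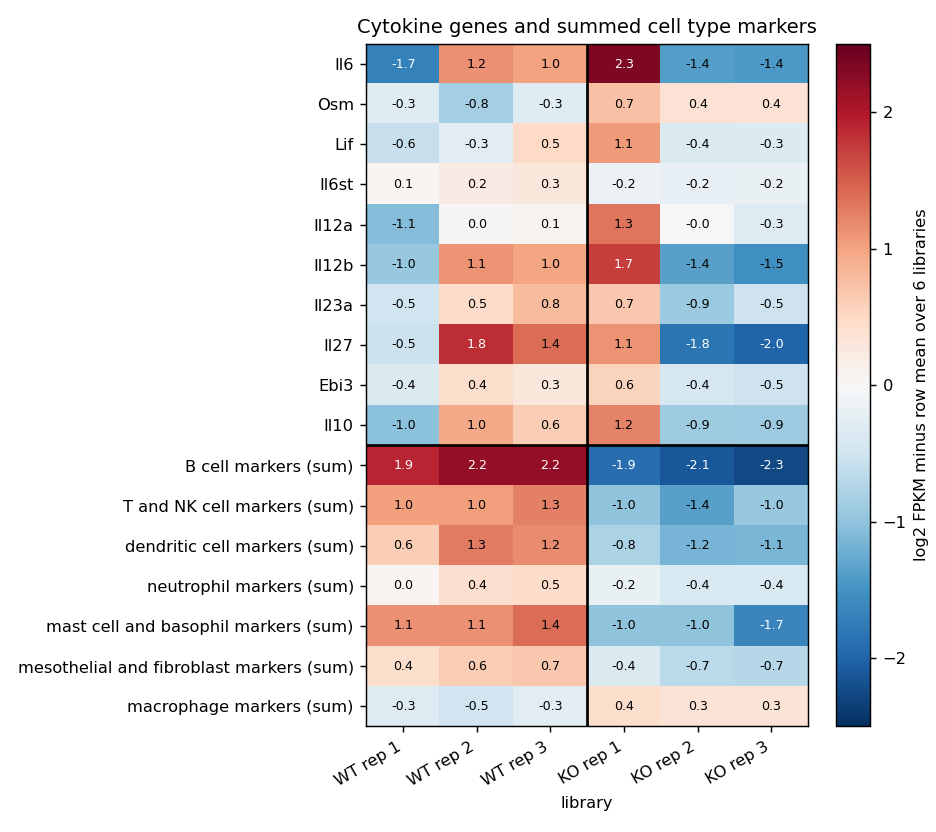
Log2 FPKM of each cytokine gene, and of the summed markers of 7 cell types, minus the row's mean over the 6 libraries. The B cell, T and NK cell and dendritic cell rows split at the line between genotypes, while *Il6*, *Il12b*, *Il27* and *Il10* are high in KO replicate 1 and in WT replicates 2 and 3.

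To describe which genes shared each pattern, log2(FPKM + 1) of 6858 protein-coding genes averaging 2 FPKM or more was compared with each cytokine gene over the 6 libraries. The values of r are descriptions over 6 libraries that share a scaling, and high values are easily reached among many genes. Closest to *Il6* was *Stat5a*, which encodes a STAT factor (Pearson r = 0.9995), at 11.6, 22.7 and 21.2 FPKM in WT and 29.6, 12.7 and 12.3 FPKM in KO. *Ntng2* was closest to both *Il10* (r = 0.9988) and *Ebi3* (r = 0.996). Next to *Il10* came the nuclear receptor gene *Nr4a3* (r = 0.9983) and the AP-1 family gene *Batf* (r = 0.998). *Mmp3*, a matrix metalloproteinase gene, was closest to *Il12b* (r = 0.9967). *Il27* was most like *Ggta1* (r = 0.9989) and *Cd40* (r = 0.9972), a co-stimulatory receptor gene, with *Cd40* at 12.4, 25.9 and 22.8 FPKM in WT and 22.0, 7.68 and 8.03 FPKM in KO.

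*Il23a* was most like the chemokine gene *Cxcl2* (r = 0.9948), which stood at 5833, 8044 and 9569 FPKM in WT and 9064, 5054 and 5483 FPKM in KO. *Abracl* was closest to *Il12a* (r = 0.9933) and *Rybp* to *Lif* (r = 0.9881). The 2 genes with separated genotypes had other companions: *Abhd5*, a lipase cofactor gene, for *Osm* (r = 0.9978) and *Slc10a6* for *Il6st* (r = 0.9928). *Slc10a6* stood at 2.03, 5.16 and 5.30 FPKM in WT and 0.478, 0.179 and 0.157 FPKM in KO.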

How the data were processed

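Total RNA of 6 libraries (3 WT, 3 KO) was sequenced, and groups and replicate numbers were read from the sample titles. The authors deposited FPKM per gene, with gene coordinates and lengths, with GRCm38 (mm10) named as the genome build per the submitters' processing notes. The aligner, counter, annotation release and strand setting were each not given in the sources used here. Multiplying FPKM by gene length gave whole steps for 100% of values above 0 (tolerance 0.05 of a step), and these were taken as reads. Chi-square over degrees of freedom between replicates of a group was 2.30 for KO replicates 2 and 3 and 7.10 for WT replicates 2 and 3, against 39.6 to 59.4 for pairs with a replicate 1 library. No pair agreed within sampling noise, and each library was counted as 1 replicate. That spread does not show that the libraries came from different animals or cultures. Both replicate 1 libraries stood apart, and results are given with and without them. FPKM is not a count: limma 3.58.1 (R 4.3.3) was fitted to log2(FPKM + 1) with genotype alone, trended eBayes and Benjamini-Hochberg adjustment over 11689 genes, which understates folds of low genes. Folds are ratios of mean FPKM. The fits were also run on simulated data in which all libraries had the same spread. No outlying replicate 1 libraries were simulated, so that run does not show how the fits behave with or without them.

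The cytokine genes, lists and tests were chosen with earlier results of these data known. A few genes are not reported here and were left out of the lists and their counts. Named genes are the cytokine genes, *Metrnl* and the most alike genes by Pearson r. Each list gave up to 6 called members by size of change and up to 2 uncalled members with the highest mean. Up to 3 markers per cell type were named by mean. Genes marked in the text were picked with their values in view. Outside these rules, *Irf8*, *Batf* and *Fcgr1* were also named. So were ligands and receptors below the filter, genes overlapping a cytokine gene, and the tested T cell and lymphocyte markers. Alternatives were TPM, a pseudocount of 0.1, dropping the filter or raising it to 2 FPKM, quantile normalization, 2 other eBayes settings, limma voom on recovered reads, a replicate block, and leaving out libraries.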

Additional observations from a re-analysis of the deposited data

How the results depend on the processing

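*Osm* was called higher in KO under every alternative run, with log2 fold changes from 0.78 to 1.05 when 1 library was left out. The count of cytokine genes called lower (1) was 0 with no filter, in TPM and with the replicate block, 0 to 2 when 1 library was left out and 7 without both replicate 1 libraries; where it was 0 with limma, 1 gene had an unadjusted p below 0.05, and limma voom called 1. With 1 library left out, the log2 fold change ranged from -1.52 to 0.32 for *Il6*, from -0.23 to 0.54 for *Lif* and from -1.07 to 0.019 for *Il10*, so their signs depended on which library was left out. Without both replicate 1 libraries *Lif* was at -0.44 and *Il12a* at -0.20, against 0.24 and 0.62; the cause was not tested.

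Replicate numbers did not pair the samples (correlation of deviations from the group means -0.50, -0.19 and -0.16 for numbers 1 to 3). No library correlated best with its own number. WT replicates 2 and 3 correlated best with KO replicate 1, and KO replicates 2 and 3 with WT replicate 1. With the replicate block, all-gene calls fell from 1833 higher and 1445 lower to 479 and 604, *Osm* kept its call (adjusted p = 0.0376) and *Il6st* lost it (0.104). TPM gave 542 higher and 1161 lower, a mean of at least 2 FPKM 876 lower, and leaving out 1 library 912 to 1681 higher and 851 to 1337 lower.

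Receptor and signalling genes higher (3) were 1 in TPM, 1 with the replicate block and 2 when 1 library was left out; those lower (2) were 1 with no filter, 4 in TPM, 4 with limma voom on recovered reads, 1 with the replicate block, 1 to 4 when 1 library was left out and 7 without both replicate 1 libraries. Transcriptional regulators higher (6) were 2 with the replicate block; those lower (6) were 3 with no filter, 2 to 5 when 1 library was left out and 16 without both replicate 1 libraries. RNA decay regulators lower (2) were 0 with no filter, 1 in TPM, 0 with the replicate block, 0 to 2 when 1 library was left out and 7 without both replicate 1 libraries, where 1 was higher. Other IL-10 and IL-17 family ligands lower (2) were 1 with a pseudocount of 0.1, 0 with no filter, 0 at a mean of at least 2 FPKM, 1 with quantile normalization, 0 with the replicate block, 0 to 3 when 1 library was left out and 4 without both replicate 1 libraries. *Clcf1*, the 1 tested other ligand of the *Il6st* chain, was called lower without KO replicate 1 (0 to 1 when 1 library was left out) and without both replicate 1 libraries (1). Depth limits the least read genes. Among the cytokine genes, *Il27* rests on 88 reads in KO replicate 3. Some called genes of the lists rest on far fewer. *Il22* had 2 reads and *Il17f* 7 reads in KO replicate 2, and *Batf3* had 3 reads in KO replicate 1.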
